A study of Saccharomyces cerevisiae with 8 samples.

Results

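The 10 genes described here encode the fatty acid oxidation machinery of the peroxisome in Saccharomyces cerevisiae. They were chosen by their systematic identifiers, with no measured value used, from the 7126 annotated features of the count table: PXA1 (YPL147W, chrXVI:273255-275867, + strand), PXA2 (YKL188C, chrXI:86225-88786, - strand), FAA2 (YER015W, chrV:184541-186775, + strand), POX1 (YGL205W, chrVII:108158-110404, + strand), FOX2 (YKR009C, chrXI:454352-457054, - strand), POT1 (YIL160C, chrIX:40191-41444, - strand), ECI1 (YLR284C, chrXII:706198-707040, - strand), SPS19 (YNL202W, chrXIV:259578-260456, + strand), CAT2 (YML042W, chrXIII:192788-194800, + strand) and PEX11 (YOL147C, chrXV:47933-48643, - strand). Earlier results of these data were known when the genes were chosen, although the rule used none of the values. The coordinates are coding sequences on the R64 assembly, each in 1 exon. All 10 passed the filter on low counts (2 CPM, counts scaled to the library total, reached in 4 or more libraries), as did 5778 features in all. POT1 passed it through the 4 manganese libraries alone.

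The study compared strains that differ in inorganic polyphosphate metabolism in medium with and without excess manganese, by RNA sequencing of 8 libraries, 2 per group. The CRN/PPN1 strain is CRN carrying the pMB1/PPN1 Sc vector, from which the polyphosphatase Ppn1 is overproduced. CRN is its parent (MATa ade2 his3 ura3 ppn1Δ::CgTRP1), so the chromosomal PPN1 copy is deleted in both strains although the submitters' genotype field calls CRN wild type. Each strain was grown in rich medium with 2% glucose and 14 mM potassium phosphate, either with 5 mM MnSO4 (the manganese medium) or without it (the control medium). The groups were therefore manganese-grown CRN/PPN1 harvested at 16 h, manganese-grown CRN harvested at 40 h, and each strain in control medium harvested at 12 h. The harvest time changed with the medium and, in manganese, with the strain, so growth time and these factors cannot be told apart. CRN was not transformed with an empty vector in these libraries, so the vector and the overproduced enzyme cannot be told apart either. The replicates of a group came from simultaneous cultivations, and the p-values measure only the spread between such cultures.

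Gene counts summed to between 2309776 and 3579469 per library. PPN1 had 22035 and 25525 counts in manganese-grown CRN/PPN1 and 7216 and 7027 in CRN/PPN1 controls, against 39 and 3 in manganese-grown CRN and 9 and 7 in CRN controls, which fits the labels. The a-mating-type genes MFA1, MFA2, STE2 and BAR1 were present in every library and the α-factor genes MFALPHA1 and MFALPHA2 had at most 35 counts in any library. The α-cell receptor gene STE3, low in MATa cells, had 31 and 7 counts in manganese-grown CRN/PPN1, 92 and 74 in manganese-grown CRN, 11 and 13 in CRN/PPN1 controls and 1 and 5 in CRN controls. In CRN, STE3 rose in manganese (log2 3.09, adjusted p = 0.00533), while MFA1 (-3.96), MFA2 (-5.04) and STE2 (-2.57) fell. In CRN/PPN1, MFA1 (-1.71), MFA2 (-1.74), STE2 (-1.41) and BAR1 (-1.08) fell. The part of these changes in the results below was not tested. A property of the libraries touches many values below, the share of genes with a coding length of 592 bp or less in the counts of all features with a coding length. They held 31.2 and 32.1% of these counts in manganese-grown CRN/PPN1 and 64.3 and 62.6% in CRN/PPN1 controls. The shares were 13.8 and 16.0% in manganese-grown CRN and 75.6 and 68.9% in CRN controls. In CRN the median log2 fold change in manganese was -2.29 for tested genes of up to 648 bp and 0.73 for those of 2130 bp or more. Results that this trend moves across the threshold are given also with the trend of counts on coding length removed in each library.

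Yeast breaks fatty acids down in peroxisomes alone, unlike animal cells, which also use mitochondria. Acyl-CoA enters the organelle or is made inside it, is shortened by repeated rounds of oxidation, hydration, a further oxidation and thiolytic cleavage, and leaves as acetyl units. The genes of the pathway are repressed by glucose and induced when oleate is the carbon source. Induction is known to require the transcription factors Oaf1 and Pip2, which bind as a pair to the oleate response element, together with Adr1, which acts once the kinase Snf1 is active.

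The promoters are shown here because the 10 genes are known as one regulon, while their transcripts did not move as one in these libraries. The 500 bases before each start codon were searched on the R64 assembly, on both strands, for CGG and CCG separated by 15 to 18 bases, the form of the oleate response element. These letters were found for 8 of the 10 genes, not for PXA1 and CAT2, and for 8.83% of 5992 nuclear promoters of the same length. As the 10 genes are already known as one regulon, the 2 shares are a description and not a test. POX1 and FOX2 each had 2 such elements. Adr1 letters (TTGGAG or TTGGGG, either strand) were found for 9 of the 10 genes, not for PXA2, and for 26.2% of promoters. The letters AGGGG of the general stress response, which can overlap an Adr1 match, were found for POX1 and SPS19 and for 34.1% of promoters. The elements of the genes whose transcripts differed most between groups, and that of PEX11, are printed on the coding strand with 15 flanking bases, CGG and CCG in capitals.
POX1, distal element (chrVII:107831-107883, + strand): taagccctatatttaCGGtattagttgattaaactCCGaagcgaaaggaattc
POX1, proximal element (chrVII:107868-107920, + strand): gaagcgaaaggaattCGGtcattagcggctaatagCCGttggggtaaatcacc
POT1 (chrIX:41595-41647, - strand): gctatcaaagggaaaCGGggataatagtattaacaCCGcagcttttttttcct
SPS19 (chrXIV:259397-259450, + strand): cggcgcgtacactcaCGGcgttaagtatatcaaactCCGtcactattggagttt
FOX2, distal element (chrXI:457322-457373, - strand): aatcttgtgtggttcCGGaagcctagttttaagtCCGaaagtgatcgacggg
FOX2, proximal element (chrXI:457290-457340, - strand): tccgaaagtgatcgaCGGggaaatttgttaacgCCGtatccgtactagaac
PXA2 (chrXI:89020-89073, - strand): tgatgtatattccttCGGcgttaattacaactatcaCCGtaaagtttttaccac
PEX11 (chrXV:48741-48793, - strand): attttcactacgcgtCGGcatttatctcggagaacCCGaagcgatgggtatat
The distal and proximal elements of POX1 lie 312 to 290 and 275 to 253 bases before its start codon, and the POT1 element 188 to 166 bases before its own. PEX11, whose transcript did not pass the test in any comparison, has an element at 135 to 113 bases, the nearest to a start codon of the 8 genes. The searched letters thus occur in genes that moved strongly and in genes that did not pass the test.

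In CRN, 6 of the 10 genes rose in manganese and none fell, nor did any at an unadjusted p under 0.05 or with DESeq2. The 6 were POT1, SPS19, POX1, PXA2, FOX2 and CAT2, with fold changes between 2.70 and 38.0. A gene was counted as changed where the adjusted p was 0.05 or less and the log2 fold change 1 or more in size (edgeR's quasi-likelihood test over all 5778 features), and 24.7% of all features rose and 24% fell by this rule. Among tested genes of 2130 bp or more, which include PXA1, PXA2, FAA2, POX1 and FOX2, 39.7% rose. The median log2 fold change was 1.59 over the 10 genes and 0.09 over all features. The groups did not overlap for any of the 10 genes, and did not for 83.9% of all features. In CRN/PPN1 only POT1 rose, with 10.1% of all features rising and 15.1% falling, and the median log2 fold change was 0.07 over the 10 genes. Without the limit on the fold change FOX2 counted as well, which made 2 of the 10 genes against 39.1% of all features. The change in CRN/PPN1 was below that in CRN, by the test of the difference itself, for 6 genes. Of all features, 11.6% had a lower change in CRN/PPN1 by this test and 15% a higher one.

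**Figure D1:**
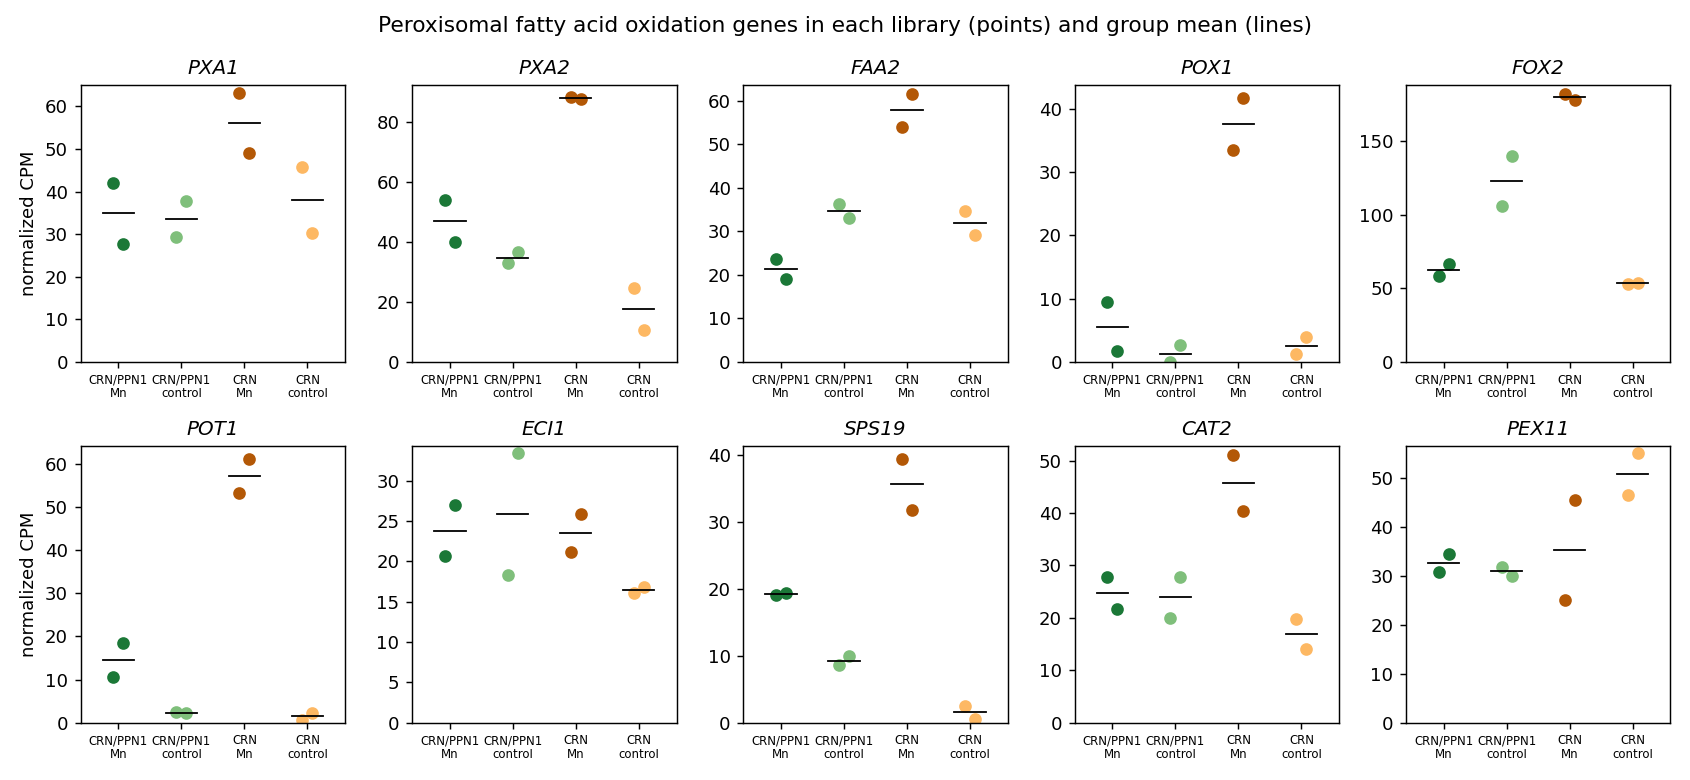
Normalized CPM (y axis, linear, from 0) of the 10 genes in each of the 8 libraries (points), with lines at the mean of the 2 libraries of a group; x axis, strain and medium. The CRN libraries in manganese (dark orange) stood above the other 6 for POT1 (53.3 and 61.2), SPS19, POX1, PXA2, FAA2, FOX2, CAT2 and PXA1, and not for ECI1 or PEX11.

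POX1 encodes the acyl-CoA oxidase, which carries out the first and rate-setting step of each round and releases hydrogen peroxide. Its normalized CPM (CPM of the TMM-scaled library) was 9.37 and 1.64 in manganese-grown CRN/PPN1, 33.5 and 41.7 in manganese-grown CRN, 0 and 2.61 in CRN/PPN1 controls, and 1.24 and 3.93 in CRN controls. The 2 CRN libraries in manganese stood apart from the other 6, which held 0 to 29 counts each against 172 and 243. In CRN, POX1 rose in manganese (log2 fold change 3.81 ± 0.81 (SE), adjusted p = 0.000736), with 415 counts in manganese and 9 in control, a ratio of 14.3 with a 95% counting interval of 7.44 to 31.4. In CRN/PPN1 the value was 2.09 ± 0.99 (adjusted p = 0.109) and the groups overlapped. It was 7.19 without replicate 2 of CRN/PPN1 controls, when the only control library left held no count, and 2.86 without replicate 2 of manganese-grown CRN/PPN1, with adjusted p of 0.0335 and 0.0102. The difference between the strains' changes did not pass the test (-1.73 ± 1.45, adjusted p = 0.395). In manganese POX1 was lower in CRN/PPN1 than in CRN (log2 -2.76 ± 0.67, adjusted p = 0.00585). That call was lost without replicate 2 of manganese-grown CRN (-2.57, adjusted p = 0.0554) and with DESeq2 (-2.73, adjusted p = 0.121).

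FOX2 encodes the multifunctional enzyme that hydrates enoyl-CoA and then oxidizes the hydroxyacyl-CoA. It was the only gene of the 10 with opposite signs in the strains and an adjusted p under 0.05 in each. Its normalized CPM was 58.6 and 66.8 in manganese-grown CRN/PPN1, against 105.7 and 140.1 in CRN/PPN1 controls. In CRN it was 181.8 and 177.8 in manganese, against 52.7 and 53.9 in control medium. FOX2 rose in CRN (log2 1.75 ± 0.21, adjusted p = 3.05e-06). In CRN/PPN1 its log2 fold change was -0.97 ± 0.20 (adjusted p = 0.00148), which misses the limit on the fold change. The value passed that limit without replicate 1 of CRN/PPN1 controls (-1.16), without replicate 2 of manganese-grown CRN/PPN1 (-1.06) and with the length trend removed (-1.31, adjusted p = 0.000163). With the trend removed, the change in CRN was 0.99 (adjusted p = 0.000595), just under the limit. The difference between the changes was -2.72 ± 0.29 (adjusted p = 2.92e-05), and -2.30 (adjusted p = 4.82e-05) with the trend removed.

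POT1 encodes the 3-ketoacyl-CoA thiolase, which cleaves off the acetyl-CoA at the end of each round. Its normalized CPM was 10.7 and 18.4 in manganese-grown CRN/PPN1, against 2.45 and 2.18 in CRN/PPN1 controls. In CRN it was 53.3 and 61.2 in manganese, against 0.62 and 2.25 in control medium. POT1 was thus higher in manganese in both strains, with no overlap between media. It rose by log2 2.63 ± 0.52 in CRN/PPN1 (adjusted p = 0.000885) and by 5.25 ± 0.55 in CRN (adjusted p = 6.93e-07). POT1 passed the filter on low counts, set on counts scaled to the library total, through the manganese libraries alone. Its entry into the test was thus not independent of the difference between media. The ratio of summed counts was 6.27 (95% counting interval 3.34 to 13.01) in CRN/PPN1 and 39.0 (16.6 to 121) in CRN. The control levels rest on 11 counts in CRN/PPN1 and 5 in CRN. The difference between the changes passed the test narrowly (-2.62 ± 0.88, adjusted p = 0.0350). It did not pass with the later form of the quasi-likelihood fit (adjusted p = 0.0659) or when any of 6 single libraries was left out: replicate 1 of CRN controls (-2.02), either replicate of manganese-grown CRN (-2.72 and -2.52), either replicate of CRN/PPN1 controls (-2.53 and -2.70), or replicate 1 of manganese-grown CRN/PPN1 (-2.28), with adjusted p of 0.0517 to 0.127. In manganese POT1 was lower in CRN/PPN1 (log2 -1.98 ± 0.37, adjusted p = 0.000897), on 89 counts against 631.

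Reads on the other strand were numerous at POT1 and POX1 where the coding strand was low. At POT1 the other strand held 50 of 139 reads of both strands in manganese-grown CRN/PPN1 (36.0%, exact 95% interval 28.0 to 44.5) and 51 of 62 in CRN/PPN1 controls (82.3%, 70.5 to 90.8). In CRN it held 134 of 765 in manganese (17.5%, 14.9 to 20.4) and 57 of 62 in control medium (91.9%, 82.2 to 97.3). At POX1 it held 25 of 59 in manganese-grown CRN/PPN1, 48 of 54 in CRN/PPN1 controls, 27 of 442 in manganese-grown CRN and 18 of 27 in CRN controls. The other strand thus carried most reads of both genes in both control groups, as it did for 10.1 to 11.4% of features with at least 20 reads in a group. The intervals cover counting error only. The main counts are those on the coding strand, and with the unstranded counts of the same libraries the rise of POT1 in CRN/PPN1 was lost (log2 0.85, adjusted p = 0.0788) and the POX1 value there was -0.19. In CRN, POT1 and POX1 still rose with unstranded counts, by log2 1.94 and 2.34, against 5.25 and 3.81 on the coding strand. The POT1 difference between the strains' changes was then -1.09, against -2.62.

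PXA1 and PXA2 encode the paired subunits of the ABC transporter that brings long-chain acyl-CoA into the peroxisome, and their transcripts differed in how they moved. PXA2 had 54.1 and 40.1 normalized CPM in manganese-grown CRN/PPN1 and 33.1 and 36.5 in CRN/PPN1 controls. It had 88.6 and 87.8 in manganese-grown CRN and 24.8 and 10.7 in CRN controls. PXA2 rose in CRN (log2 2.33 ± 0.32, adjusted p = 1.3e-05) and did not pass in CRN/PPN1 (0.44 ± 0.29, adjusted p = 0.258), and the difference between these changes passed (-1.89 ± 0.44, adjusted p = 0.00426). PXA1 had 42.1 and 27.6 normalized CPM in manganese-grown CRN/PPN1 and 29.4 and 37.9 in CRN/PPN1 controls, 63.3 and 49.0 in manganese-grown CRN, and 45.8 and 30.3 in CRN controls. PXA1 passed the test in no comparison, with log2 fold changes of 0.05 ± 0.30 in CRN/PPN1 and 0.56 ± 0.30 in CRN (adjusted p = 0.110). Whether the subunits' changes differed from each other was not tested.

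FAA2, the peroxisomal acyl-CoA synthetase that activates medium-chain fatty acids inside the organelle, had opposite signs in the strains. It had 23.6 and 19.1 normalized CPM in manganese-grown CRN/PPN1, against 36.3 and 33.1 in CRN/PPN1 controls. In CRN it had 54.1 and 61.5 in manganese, against 34.7 and 29.2 in control medium. Neither change was called: the log2 fold change was -0.70 ± 0.27 in CRN/PPN1 (adjusted p = 0.0534), and 0.86 ± 0.26 in CRN (adjusted p = 0.0102), under the fold limit. Their difference passed the test (-1.56 ± 0.38, adjusted p = 0.00579). With the length trend removed the value in CRN/PPN1 passed (-1.02, adjusted p = 0.0107), that in CRN was 0.17, and the difference still passed (-1.19, adjusted p = 0.0312). FAA2 overlaps an annotated feature on the opposite strand, YER014C-A, the only such overlap among the 10 genes.

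SPS19 and ECI1 encode the auxiliary enzymes for unsaturated fatty acids, a 2,4-dienoyl-CoA reductase and an enoyl-CoA isomerase, and they too moved differently. SPS19 had 19.1 and 19.4 normalized CPM in manganese-grown CRN/PPN1, against 8.57 and 10.01 in CRN/PPN1 controls. In CRN it had 39.5 and 31.9 in manganese, against 2.48 and 0.56 in control medium. The 4 groups of SPS19 did not overlap. It rose in CRN (log2 4.56 ± 0.56, adjusted p = 4.37e-06), on 389 counts in manganese and 5 in control medium, a ratio of 24.1 with a counting interval of 10.2 to 74.5. In CRN/PPN1 its log2 fold change was 1.05 ± 0.42 with an adjusted p of 0.0581. That value passed with either CRN control library left out (adjusted p = 0.0427 and 0.0426), and with the length trend removed (1.14, adjusted p = 0.0437). The difference between the changes was -3.51 ± 0.74 (adjusted p = 0.00241), the most negative of the 10 genes. ECI1 had 20.7 and 27.0 normalized CPM in manganese-grown CRN/PPN1, 21.2 and 25.9 in manganese-grown CRN, 18.4 and 33.5 in CRN/PPN1 controls, and 16.1 and 16.9 in CRN controls. ECI1 passed the test in no comparison, and its log2 fold changes in manganese were -0.12 ± 0.36 in CRN/PPN1 and 0.51 ± 0.38 in CRN.

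CAT2, the carnitine acetyltransferase of peroxisomes and mitochondria through which acetyl units leave the organelle, had 27.8 and 21.7 normalized CPM in manganese-grown CRN/PPN1 and 19.99 and 27.8 in CRN/PPN1 controls. It had 51.0 and 40.5 in manganese-grown CRN and 19.8 and 14.0 in CRN controls. CAT2 rose in CRN (log2 1.44 ± 0.33, adjusted p = 0.00157), a call lost with the length trend removed (0.79, adjusted p = 0.0512), and stood at 0.05 ± 0.32 in CRN/PPN1. The difference between the changes (-1.38 ± 0.47, adjusted p = 0.0358) did not pass with the trend removed (-1.03, adjusted p = 0.115) or with DESeq2 (-1.32, adjusted p = 0.0608). It was lost as well without replicate 2 of CRN controls (-1.15), replicate 1 of manganese-grown CRN (-1.22), replicate 2 of CRN/PPN1 controls (-1.13) or replicate 2 of manganese-grown CRN/PPN1 (-1.23).

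PEX11, a peroxisomal membrane protein that drives elongation and division of the organelle, had the only negative log2 fold change of the 10 genes in CRN. It had 30.7 and 34.5 normalized CPM in manganese-grown CRN/PPN1, 25.1 and 45.4 in manganese-grown CRN, 31.8 and 30.0 in CRN/PPN1 controls, and 46.5 and 55.1 in CRN controls. Its log2 fold change was 0.08 ± 0.31 in CRN/PPN1 and -0.52 ± 0.30 in CRN (adjusted p = 0.137). PEX11 is the shortest of the 10 genes (711 bp), and in CRN the sign turned with the length trend removed (0.34) and with library totals in place of TMM scaling (0.95).

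**Figure D2:**
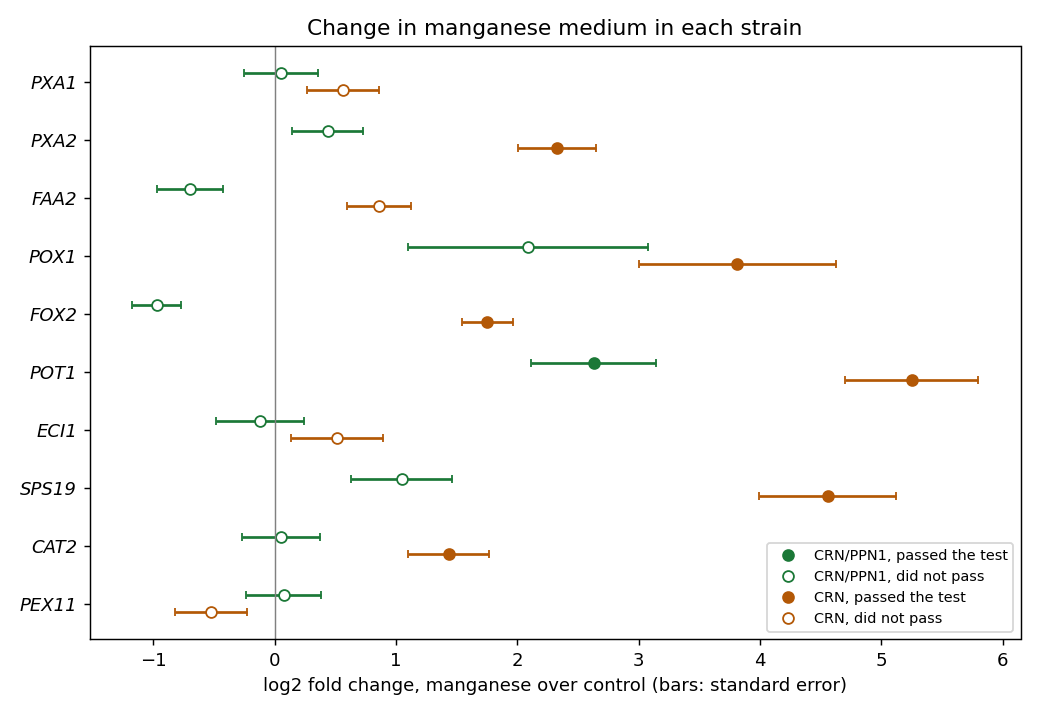
Log2 fold change of each gene, manganese over control (x axis), with standard errors, in CRN/PPN1 (green, upper of each pair) and CRN (orange, lower); filled points passed the test and open points did not. In CRN/PPN1 only POT1 (2.63) is filled, against 6 filled points in CRN, and FOX2 and FAA2 lie on opposite sides of 0 in the strains.

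Removing the length trend lowered the values of the long genes in CRN and raised those of PEX11, ECI1 and SPS19, the short ones. With it removed in each library, 4 of the 10 genes rose in CRN: POT1 (log2 4.96), SPS19 (4.83), POX1 (3.13) and PXA2 (1.58). In CRN/PPN1, POT1 (2.48) and SPS19 (1.14) then rose and FOX2 (-1.31) and FAA2 (-1.02) fell. Over all features with a coding length, 23.3% rose and 17.7% fell in CRN under this setting, and 9.97% rose and 5.6% fell in CRN/PPN1. Of the differences between the strains' changes, those of PXA2, FAA2, FOX2, POT1 and SPS19 passed with the trend removed, the POT1 value at an adjusted p of 0.0494.

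**Figure D3:**
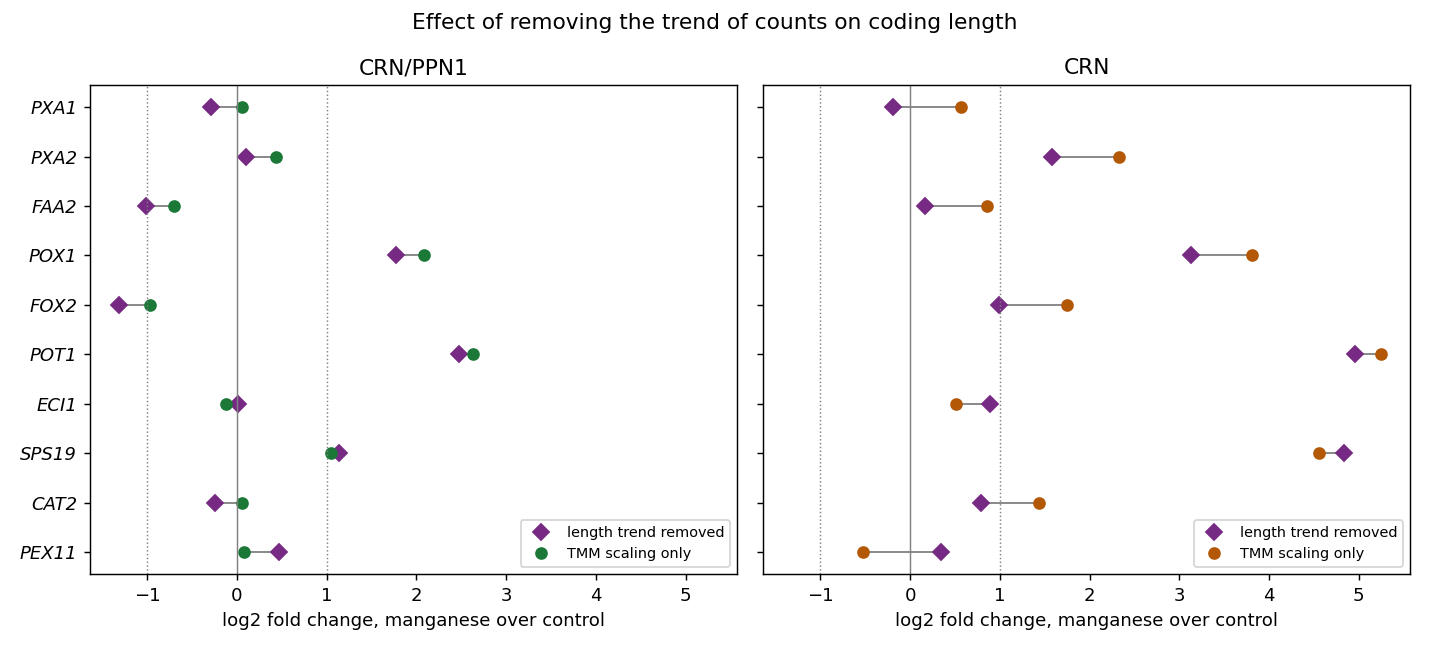
Log2 fold change, manganese over control (x axis), of each gene in CRN/PPN1 (left) and CRN (right) with TMM scaling only (circles) and with the trend of counts on coding length removed in each library (purple diamonds); dotted lines mark the fold limit of 1. FOX2 (from 1.75 to 0.99) and CAT2 (from 1.44 to 0.79) cross the limit in CRN, and POT1, SPS19, POX1 and PXA2 stay beyond it.

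In control medium, FOX2 and SPS19 were higher in CRN/PPN1 than in CRN and none of the 10 was called lower (also with DESeq2), while PEX11 stood lower at an unadjusted p of 0.0370 (log2 -0.72). Of all features, 4.45% were higher and 4.45% lower. FOX2 had 105.7 and 140.1 normalized CPM in CRN/PPN1 and 52.7 and 53.9 in CRN (log2 1.20 ± 0.21, adjusted p = 0.00146). SPS19 had 8.57 and 10.01 in CRN/PPN1 and 2.48 and 0.56 in CRN (log2 2.62 ± 0.65, adjusted p = 0.0123), on 44 counts against 5. Both calls depended on single libraries. Without replicate 2 of CRN/PPN1 neither passed (FOX2 0.99, adjusted p = 0.0433; SPS19 2.503, adjusted p = 0.0845), and without replicate 2 of CRN the SPS19 call was lost (1.89, adjusted p = 0.108). PXA2, which imports acyl-CoA, stood at 0.99 ± 0.34 (adjusted p = 0.0639) and passed without replicate 1 of CRN (1.70, adjusted p = 0.0185) or without either CRN/PPN1 library in manganese. POT1 (0.64 ± 0.81) and POX1 (-1.03 ± 1.20), at 5 to 11 summed counts per group, could not be distinguished at this depth. The groups did not overlap for 6 of the 10 genes, and did not for 57.9% of all features.

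In manganese medium, the 4 genes FAA2, POX1, FOX2 and POT1 were lower in CRN/PPN1 than in CRN, while 7.37% of all features were lower and 10.4% higher. With DESeq2 the POX1 call was lost and 3 genes were lower. None of the 10 was higher, by DESeq2 or at an unadjusted p under 0.05 in edgeR. FAA2 had 23.6 and 19.1 normalized CPM in CRN/PPN1 and 54.1 and 61.5 in CRN (log2 -1.44 ± 0.26, adjusted p = 0.000719). FOX2 had 58.6 and 66.8 in CRN/PPN1 and 181.8 and 177.8 in CRN (log2 -1.52 ± 0.20, adjusted p = 6.7e-05). FAA2 activates medium-chain fatty acids, and POX1, FOX2 and POT1 encode enzymes of the core cycle. PXA2 (-0.90 ± 0.28, adjusted p = 0.0211) and CAT2 (-0.88 ± 0.31, adjusted p = 0.0388) stood under the fold limit, and without replicate 1 of manganese-grown CRN/PPN1 both passed (-1.11 and -1.05). SPS19 (-0.89 ± 0.37, adjusted p = 0.0793) and PXA1 (-0.69 ± 0.29, adjusted p = 0.0821) did not pass. ECI1 (0.02) and PEX11 (-0.12) were the 2 genes whose groups overlapped, and 64.8% of all features had groups that did not overlap. The median log2 fold change was -0.90 over the 10 genes, -0.01 over all features and -0.32 over tested genes of 2130 bp or more. The CRN libraries of this comparison were harvested at 40 h and the CRN/PPN1 libraries at 16 h.

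The change in manganese was smaller or more negative in CRN/PPN1 than in CRN for PXA2, FAA2, FOX2, POT1, SPS19 and CAT2, as tested by the interaction of strain and medium. With DESeq2 the CAT2 call was lost and 5 genes passed. For none of the 10 was the change larger in CRN/PPN1, by DESeq2 or at an unadjusted p under 0.05 in edgeR. Of all features, 11.6% had a lower change in CRN/PPN1 by this rule and 15% a higher one. The median interaction was -1.64 over the 10 genes, -0.02 over all features and -0.42 over tested genes of 2130 bp or more. The 4 comparisons share libraries, so their counts are not independent of each other.

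Summed over the 10 genes, 297 and 276 normalized CPM were found in manganese-grown CRN/PPN1 and 286 and 354 in CRN/PPN1 controls, against 611 and 623 in manganese-grown CRN and 245 and 217 in CRN controls. As a share of all gene counts this was 0.0384 and 0.0364% in manganese-grown CRN/PPN1, against 0.0228 and 0.0300% in the CRN/PPN1 controls. It was 0.0982 and 0.101% in manganese-grown CRN, against 0.0124 and 0.0141% in the CRN controls. In bulk RNA, fewer cells with a transcript and less of it per cell cannot be told apart.

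The order of the genes by level, in normalized CPM per kilobase of coding length (mean ± SD, n = 2), differed between the groups. In manganese-grown CRN/PPN1, PEX11 was highest (45.9 ± 3.8), followed by ECI1 (28.3 ± 5.2), FOX2 (23.2 ± 2.1) and SPS19 (21.9 ± 0.25), whose spreads touch their neighbours', and POX1 was lowest (2.45 ± 2.4). In manganese-grown CRN, FOX2 was highest (66.5 ± 1.0), followed by PEX11 (49.6 ± 20.2), POT1 (45.7 ± 4.4) and SPS19 (40.6 ± 6.1), and POX1 was lowest (16.7 ± 2.6). POT1, SPS19 and PEX11 did not differ beyond their spread there. In CRN/PPN1 controls, FOX2 (45.5 ± 9.0) and PEX11 (43.5 ± 1.8) led and ECI1 followed (30.8 ± 12.7). In CRN controls, PEX11 led at 71.4 ± 8.6, FOX2 and ECI1 followed at 19.7 ± 0.34 and 19.6 ± 0.63, and SPS19, POX1 and POT1 stood at 1.73 ± 1.5, 1.15 ± 0.85 and 1.14 ± 0.92 without separation. The organelle gene PEX11 thus stood above the enzymes in CRN controls and in manganese-grown CRN/PPN1. The part of the length trend in these orders was not tested. In manganese-grown CRN and in CRN/PPN1 controls, FOX2 and PEX11 lay within their spread of each other.

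Across the 8 libraries the 45 pairs of these genes had Pearson correlations of log2 normalized CPM between -0.70 and 0.97, with a median of 0.54 and 11 values below 0. The highest was that of PXA2 with SPS19 (0.97), followed by PXA2 with CAT2 (0.94), and the lowest that of SPS19 with PEX11 (-0.70). The libraries share strain, medium and the length trend, so these values are a description. The 5 genes whose pattern was most like that of POT1, among 5159 genes averaging 50 or more normalized counts per library, were YLR225C, PIN2, PRM10, ALR2 and DPA10, with correlations of 0.99. In all, 247 genes reached 0.95, so likeness to POT1 marks a common pattern in these libraries.

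The other enzymes and carriers of the peroxisome mostly rose in CRN as well. Of 12 such genes, 7 rose and 1 fell, where 24.7% of all features rose and 24% fell. This was the ATP carrier gene ANT1 (log2 -1.46, named after its value was seen), which stood at 0.039 with library totals and whose call was lost without replicate 1 of CRN controls (-1.39) or of manganese-grown CRN (-0.84). The largest changes were those of PXP1 (log2 2.28), a thiamine-dependent enzyme homolog, the lipase LPX1 (2.10), the thioesterase TES1 (2.08) and the citrate synthase CIT2 (2.01). In CRN/PPN1, where 10.1% of all features rose, PCS60 alone rose (1.18), and it fell short with the length trend removed (0.94). In manganese, TES1 (-1.11) and PXP1 (-1.25) were lower in CRN/PPN1 than in CRN and no other of the 12 passed. Of all features, 7.37% were lower there and 10.4% higher. The TES1 call was lost when either CRN library in manganese, either CRN/PPN1 library in control medium or replicate 2 of manganese-grown CRN/PPN1 was left out (log2 -1.23 to -0.53), and that of PXP1 without the last of these (-0.91). In control medium CIT2 (1.16) and PXP1 (1.04) were higher in CRN/PPN1, as were 4.45% of all features. The PXP1 call there was lost with the length trend removed (0.90) and when any of 6 libraries was left out: either library of each strain in control medium or either CRN library in manganese (0.87 to 1.22).

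Peroxins import proteins into peroxisomes and set their number. The 29 genes of this list, which also holds the peroxisome inheritance genes INP1 and INP2, showed no single direction. In CRN 10 rose and 5 fell, against 24.7 and 24% of all features, with the largest changes in PEX18 (log2 3.55), PEX2 (2.24), PEX22 (-2.12) and PEX21 (-2.09). The others that fell, named after their values were seen, were PEX34 (-1.89), PEX25 (-1.25) and PEX17 (-1.11). Their directions depended on the scaling: with library totals PEX25 stood at 0.24 and PEX17 at 0.39, and with the length trend removed PEX34 stood at 0.48 and PEX17 at 0.34. The PEX17 call was also lost when any of 6 libraries was left out, all but those of manganese-grown CRN/PPN1 (-1.30 to -0.91). The PEX18 call was lost without replicate 1 of CRN controls (2.64), and that of PEX22 with the length trend removed (-0.38). With library totals the PEX21 and PEX22 calls were lost as well, at -0.63 and -0.62. In CRN/PPN1 none rose and 4 fell, against 10.1 and 15.1% of all features. These were PEX17 (-1.83), PEX27 (-1.57), PEX22 (-1.57) and PEX34 (-1.57), of which PEX17, PEX22 and PEX34 did not pass with the trend removed. With library totals PEX22, PEX27 and PEX34 stood at -0.91 to -0.90. In control medium PEX27 (1.10) and PEX29 (1.07, and 0.93 with the trend removed) were higher in CRN/PPN1, each call lost without replicate 2 of either strain in control medium, that of PEX27 also without replicate 1 of either (0.84 to 1.25 over the calls lost). In manganese PEX21 (1.34) was higher in CRN/PPN1 and PEX9 (-1.88) lower, the PEX9 call being lost without replicate 1 of either strain in manganese (-1.52 and -1.62). Of all features, 4.45% were higher in CRN/PPN1 in control medium, and 10.4% were higher and 7.37% lower in manganese.

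Of 12 regulators of oleate and glucose-repressed genes, 8 rose in manganese-grown CRN, 3 did not pass and 1 fell, against 24.7% of all features rising and 24% falling. The gene that fell was SNF4 (log2 -1.29, named after its value was seen), the activating subunit of the Snf1 kinase, which stood at 0.18 with library totals. ADR1, the activator that acts with Oaf1 and Pip2, had 114 and 149 normalized CPM in manganese-grown CRN/PPN1 and 29.8 and 40.9 in CRN/PPN1 controls, against 850 and 917 in manganese-grown CRN and 9.91 and 10.7 in CRN controls. It rose in both strains (log2 1.90 in CRN/PPN1 and 6.42 in CRN). CAT8, the activator of gluconeogenic genes, had 22.0 and 17.4 in manganese-grown CRN/PPN1 and 14.3 and 14.8 in CRN/PPN1 controls, against 98.5 and 96.5 in manganese-grown CRN and 2.48 and 2.25 in CRN controls. PIP2 rose in CRN by log2 3.11 and OAF1 by 2.503, while OAF1 rose by 1.08 in CRN/PPN1, where it missed the limit without replicate 2 of manganese-grown CRN/PPN1 (0.83) and with the length trend removed (0.74). In CRN/PPN1, 5 of the 12 rose and none fell, against 10.1 and 15.1% of all features. The other regulators that rose there were REG1 (1.91), which directs the phosphatase that keeps Snf1 inactive, and the repressor genes MIG2 (1.22) and TUP1 (1.08). The remaining regulators that rose in CRN were REG1 (2.29), OAF3 (1.91), MIG1 (1.69) and CYC8 (1.35), named after their values were seen. The alternative settings were not examined for these values in CRN. TUP1, named after its value was seen, was under the limit with the length trend removed (0.77) and without replicate 1 of manganese-grown CRN/PPN1 (0.92). The groups of ADR1 and CAT8 did not overlap in any of the comparisons, and depending on the comparison did not for 57.9 to 83.9% of all features. CAT8 was not called in CRN/PPN1, manganese over control.

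**Figure D4:**
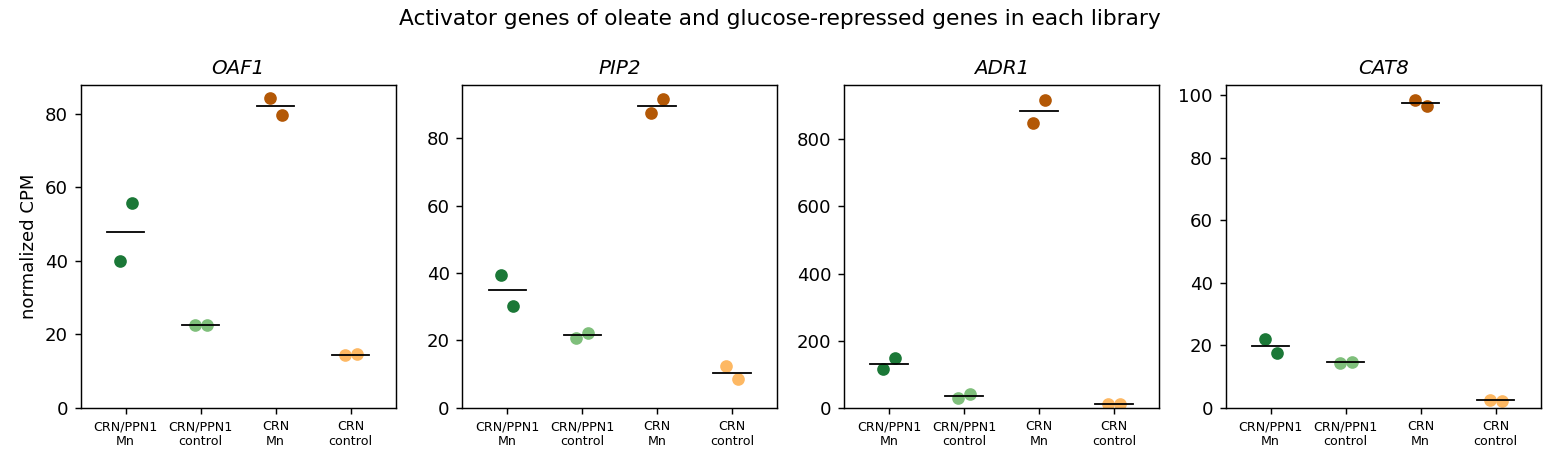
Normalized CPM (y axis, linear, from 0) of the activator genes OAF1, PIP2, ADR1 and CAT8 in each of the 8 libraries (points), with lines at the mean of the 2 libraries of a group; x axis, strain and medium. The CRN libraries in manganese stand highest in each panel (850 and 917 for ADR1, against 114 and 149 in manganese-grown CRN/PPN1).

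Between strains ADR1, CAT8 and PIP2 differed in opposite directions in the 2 media, while in each medium 8 of the 12 regulators were not called. Of all features, 7.37% were lower and 10.4% higher in CRN/PPN1 in manganese, and 4.45% were higher and 4.45% lower in control medium. In manganese ADR1 (log2 -2.75), CAT8 (-2.30), PIP2 (-1.36) and OAF3 (-1.14) were lower in CRN/PPN1, the OAF3 value being under the limit with the length trend removed (-0.82) and its call lost without replicate 1 of either strain in manganese (-0.99 and -0.83). In control medium CAT8 (2.60), ADR1 (1.77), PIP2 (1.05) and MIG1 (1.02), the last a repressor of glucose-repressed genes, were higher in CRN/PPN1. The PIP2 call in control medium was lost with the length trend removed (0.96) and when any of 6 libraries was left out: either library of each strain in control medium or either CRN library in manganese (0.79 to 1.35). The MIG1 call was lost with the trend removed (0.88), and without replicate 2 of CRN or either CRN/PPN1 library in control medium (0.78 to 1.12). The oleate element letters were found upstream of 4 of the 12 regulator genes, OAF1 and PIP2 among them.

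Of 10 glucose-repressed genes outside the peroxisome, 5 rose and none fell in CRN, against 24.7 and 24% of all features. In CRN/PPN1 1 rose and 2 fell, against 10.1 and 15.1%. In manganese 3 were lower in CRN/PPN1 than in CRN, against 7.37% of all features. In control medium 2 were higher, against 4.45%. The largest changes in CRN were those of SFC1 (log2 5.20), JEN1 (4.30), MLS1 (2.22) and PCK1 (2.03). A smaller one was that of the invertase gene SUC2 (1.12, named after its value was seen, and 0.62 with the length trend removed). The 4 largest serve the transport and use of non-sugar carbon. The MLS1 value rests on low counts, 45 and 47 in manganese-grown CRN against 4 and 2 in CRN controls, and its call was lost when either library of CRN in either medium or of CRN/PPN1 controls was left out (1.75 to 2.86); with the length trend removed it was 1.69 (adjusted p = 0.120) and with unstranded counts -0.20. In CRN/PPN1 SFC1 rose (2.47), a call lost without replicate 1 of CRN/PPN1 controls (1.76) and with unstranded counts (0.32), and ACS1 (-1.24) and CYB2 (-1.02) fell, the CYB2 value being under the limit without replicate 1 of manganese-grown CRN/PPN1 (-0.93). With library totals ACS1 stood at -0.57 and CYB2 at -0.35, and neither passed. In manganese JEN1 (-1.54), PCK1 (-1.34) and ACS1 (-1.10, and -0.86 with the length trend removed) were lower in CRN/PPN1, with the PCK1 call lost without replicate 1 of manganese-grown CRN (-1.18). In control medium CYB2 (2.11) and JEN1 (1.77) were higher in CRN/PPN1, with the JEN1 call lost without replicate 1 of CRN (1.70) or replicate 2 of CRN/PPN1 (1.27).

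Outside the peroxisome, of 7 other genes of fatty acid activation and the carnitine shuttle, the carrier CRC1 (log2 3.90) and the acyl-CoA synthetase FAA1 (1.51) rose in CRN and YAT1 (1.71) in CRN/PPN1. Of all features, 24.7% rose and 24% fell in CRN, and 10.1% rose and 15.1% fell in CRN/PPN1. In manganese 10.4% were higher and 7.37% lower in CRN/PPN1 than in CRN. FAA1 fell under the fold limit with the length trend removed (0.85), and the YAT1 call was lost then (1.41), without replicate 2 of CRN/PPN1 controls (1.37) or without replicate 2 of manganese-grown CRN/PPN1 (1.51). Among 7 genes of fatty acid synthesis, the elongases ELO1 (-3.21), ELO3 (-1.78) and ELO2 (-1.07) fell in CRN, although with library totals ELO3 stood at -0.28 and ELO2 at 0.42. In CRN/PPN1 ELO1 fell (-1.71) and FAS2 rose (1.13, and 0.76 with the length trend removed), and in manganese ELO1 (1.41, and 0.71 with unstranded counts) and OLE1 (1.10) were higher in CRN/PPN1, OLE1 at 0.79 with library totals. Of 11 genes of storage lipid synthesis and breakdown, the sterol ester hydrolase YEH1 (3.20 in CRN, 2.47 in CRN/PPN1) and the sterol acyltransferase ARE1 (2.30 and 1.65) rose in both strains, LRO1 (1.39) in CRN, at 0.75 with the trend removed, and ARE1 was lower in manganese-grown CRN/PPN1 (-1.40).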

How the data were processed

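Total RNA of the 8 cultures was converted to cDNA libraries with a TruSeq kit and sequenced on a NextSeq 500. Per the study's methods and the submitters' processing notes, the authors used Trimmomatic 0.36 for trimming and STAR 2.5.3a for mapping and counting on the R64 (sacCer3) annotation. The deposited values are raw counts per gene. All 57008 values of the series table equalled the column of reads on the opposite strand in the per-library files, and 90.7 to 93.3% of stranded gene counts were in that column, so the table was taken to hold the coding strand, although the named kit (TruSeq RNA Sample Prep v2) is not known as strand-specific. Coding lengths, coordinates and promoters came from the RefSeq copy of R64.

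Counts were analysed with edgeR 4.0.16 in R 4.3.3. Features with at least 2 CPM in at least 4 libraries were kept (5778), TMM factors computed, and a quasi-likelihood fit over the 4 groups used for the 4 pairwise comparisons and the interaction. P-values were two-sided and Benjamini-Hochberg adjusted over all features. SE is the log2 fold change divided by the square root of F. Counting intervals are exact. The procedure was tested on simulated data. Alternatives were library totals, DESeq2 1.42.0, other filters, another form of the fit, only the 4 libraries compared, removal of the length trend, unstranded counts, the replicate block, no fold limit and leaving out each library. Of each related list, at most 4 called genes with the largest change per comparison were named. Named after their values were seen were 7 others, the remaining regulators that rose in CRN and, for the interaction, MIG2. The genes and lists were chosen with earlier results of these data known. Replicates differed by more than counting noise (chi-square per gene of 9.99 to 18.0).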

Additional observations from a re-analysis of the deposited data

Results flagged for a closer look

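For 24 genes, the change in manganese differed between the strains by the test of the interaction of strain and medium (edgeR's quasi-likelihood test, Benjamini-Hochberg adjusted over 5778 features). Beside the oxidation genes, these were at most 4 called genes with the largest change per related list. Further genes of the regulator and peroxin lists passed as well. Values are the log2 change in CRN/PPN1 minus that in CRN, and 11.6% of all features passed with a lower and 15% with a higher change in CRN/PPN1. Of the oxidation genes, these were SPS19 (-3.51), FOX2 (-2.72), POT1 (-2.62), PXA2 (-1.89), FAA2 (-1.56) and CAT2 (-1.38). Of the other peroxisomal enzymes, they were TES1 (-2.41), PXP1 (-2.29), CIT2 (-1.43) and LPX1 (-1.23). The peroxins PEX9 (-2.57), PEX2 (-2.31) and PEX27 (-1.95) had lower changes in CRN/PPN1, and PEX21 (1.44) a higher one. Of the 12 regulators, 6 passed with a lower change and 1, the repressor gene MIG2 (1.22), with a higher one. The alternative settings were not examined for the MIG2 value. The regulators CAT8 (-4.91), ADR1 (-4.52), PIP2 (-2.41) and OAF3 (-1.77) had lower changes in CRN/PPN1. Of the glucose-repressed genes outside the peroxisome, JEN1 (-3.31), CYB2 (-1.78), PCK1 (-1.61) and ACS1 (-1.11) did. The elongase genes ELO3 (1.52) and ELO1 (1.499) had higher changes in CRN/PPN1. The calls of POT1, CAT2, LPX1, PEX2, PEX9, ACS1 and PCK1 were lost when single libraries were left out, with values between -2.72 and -0.83. With library totals the calls of ELO3 (0.69), ELO1 (0.68) and PEX21 (0.64) were lost, and with the length trend removed those of CAT2 (-1.03), PCK1 (-1.33) and ACS1 (-0.74).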

How the results depend on the processing

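Growth time changed with medium and strain, the groups hold 2 libraries each, and the control levels of POT1, POX1 and SPS19 in CRN rest on 9 counts or fewer per group, so their fold changes are imprecise. Library totals in place of TMM moved the median log2 fold change of all features to 1.57 in CRN and 0.68 in CRN/PPN1 (manganese over control), and to 0.50 in control medium and -0.32 in manganese medium (CRN/PPN1 over CRN), and to -0.84 for the interaction. Of 840 alternative values of the 10 genes, 754 kept their direction and their side of the threshold, 33 newly passed, 23 no longer passed and 30 changed sign; the cause was not tested.

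For CRN/PPN1 in manganese the count of changed oxidation genes, 1 as reported, was 4 with library totals, 2 with the later form of the fit, 4 with the length trend removed, 0 with unstranded counts (DESeq2 gave 1), 2 with no fold limit and 1 to 3 when single libraries were left out. Between strains in control medium, 2 as reported, it was 5 with library totals and 0 to 3 when single libraries were left out. Between strains in manganese, 4 as reported, it was 7 with library totals and 3 to 6 when single libraries were left out. In CRN it was 6 as reported, 9 with library totals, 4 with the length trend removed and 6 without each library in turn. For the interaction it was 6 as reported and 4 to 5 when single libraries were left out. With library totals 63.7% of all features rose in CRN and 32.4% in CRN/PPN1, 15.8% were higher in CRN/PPN1 in control medium and 15.2% lower in manganese, so those larger counts stand beside larger shares of all features.

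Sign changes in CRN, manganese over control, were PXA1 -0.19, PEX11 0.34, PEX17 0.34 and PEX34 0.48 with the length trend removed, PEX11 0.95, ELO2 0.42, ANT1 0.039, PEX17 0.39, PEX25 0.24 and SNF4 0.18 with library totals, and MLS1 -0.20 with unstranded counts. In CRN/PPN1 they were PXA1 -0.29, ECI1 0.017 and CAT2 -0.25 with the trend removed, ECI1 0.54 with library totals, and PXA1 -0.10, POX1 -0.19 and CAT2 -0.061 with unstranded counts. With single libraries left out there, PXA1 ranged over -0.27 to 0.33, ECI1 over -0.49 to 0.38, CAT2 over -0.17 to 0.31 and PEX11 over -0.00074 to 0.17. Between strains in control medium, they were PXA1 0.36 with library totals and -0.45 to 0.15 without single libraries, FAA2 -0.0011 with the trend removed, POX1 0.50 and POT1 -0.50 with unstranded counts, and POX1 -6.13 to 0.035 without single libraries. In manganese medium, they were ECI1 -0.30 with library totals, -0.090 with the trend removed and -0.17 to 0.22 without single libraries, and PEX11 -0.46 to 0.40 without single libraries. For the interaction, they were PEX11 -0.21 with library totals and POX1 -3.45 to 3.37 without single libraries, the highest without replicate 2 of CRN/PPN1 in control medium, when the only control library left held no count. None of these values had been called as reported except those of ELO2, MLS1, ANT1, PEX17, PEX25, PEX34 and SNF4.

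With the replicate number as a block, the count between strains in control medium was 3, gaining PXA2 (1.01, adjusted p = 0.0350), and the other counts of oxidation genes were 6 in CRN, 1 in CRN/PPN1, 4 in manganese and 6 for the interaction, as without the block; of the other genes named, the MLS1 call in CRN was lost (adjusted p = 0.0519). The numbers do not pair the libraries by the sources used, and deviations of same-numbered libraries correlated at 0.036 to 0.22 over the 6 pairs of groups.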
